A study of Mus musculus with 9 samples.

Results

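The 8 genes described here, Thsd7a, Pla2r1, Pard3b, Robo2, Npnt, Clic5, Nes and Dach1, encode antigens, polarity and adhesion proteins, cytoskeletal proteins and a transcriptional cofactor of the podocyte. They were found by the gene name of the array probes, leaving out control spots, which gave 24 probes for 8 of the 24142 features tested. The RNA came from glomeruli, the capillary tufts in which the kidney filters blood, purified with Dynabeads from male BTBR mice aged 22 weeks. A wild-type group and a BTBR ob/ob group received vehicle in the food, and a second BTBR ob/ob group received food containing enarodustat for 18 weeks. The ob mutation removes working leptin, so BTBR ob/ob animals grow obese and diabetic, and enarodustat blocks the prolyl hydroxylases through which hypoxia-inducible factor (HIF) is broken down. There were 3 samples in a group, with 1 single-colour Agilent array per sample, and the labels do not say whether a sample came from 1 mouse or from several, so the p-values measure the spread between these samples.

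Levels are given as log2 signal minus the log2 of the array's 75th percentile, so a difference of 1 is a 2-fold difference, and they are compared only within a probe. Group means are given ± SD (n = 3), log2 changes ± SE of a limma fit over all features, and a gene is said to have risen or fallen where its Benjamini-Hochberg adjusted p in limma was under 0.05. The 75th percentile lay between 210.5 and 325.4 signal units, the share of probes well above background ran from 62.3% to 68.3%, and no spot was saturated. Of 35 podocyte core genes, 34 were well above background on every array, and all 8 genes described here were. Whether the Lep probe reads the base changed in the ob allele was not analysed here. The Lep signal (-0.64 to -1.03 in wild type and -0.81 to -1.06 in ob/ob vehicle) therefore checks nothing about the labels. Proximal tubule RNA differed between arrays of a group. The median of 23 proximal tubule markers was 3.45 on the array of wild-type replicate 3 against 0.34 and -0.08 on the other wild-type arrays. It was 2.56 on that of enarodustat replicate 2 against -0.36 and -0.17. Results that turn on these arrays are also given without them.

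Podocytes are the epithelial cells that wrap the glomerular capillaries, and their interlocking foot processes and slit diaphragms form the outer part of the filter. THSD7A and PLA2R1 are membrane proteins known as the targets of autoantibodies in human membranous nephropathy, and mouse podocytes are known to carry THSD7A but little or no PLA2R1. PARD3B belongs to the PAR polarity proteins, ROBO2 is a receptor for SLIT ligands, and nephronectin, the product of Npnt, is a basement membrane ligand of integrin alpha-8 beta-1. CLIC5 lies with ezrin and podocalyxin at the foot process membrane, nestin is an intermediate filament protein that mature podocytes keep, and DACH1 is a transcriptional cofactor of podocyte nuclei.

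The stretches of transcript that the levels were read from are shown here because each gene's result rests on where its probe lies. For every gene the probe with the highest mean among those above background stood for the gene. The first 30 of the 60 bases of each such probe are given in the orientation of the array files, with the position of the whole probe. Whether a position is exonic or in a UTR was not analysed here.
Thsd7a probe, mm9 chr6:12261654-12261713, minus strand: ggatggcgtgtggagatgtaatgtgctttt
Pla2r1 probe, mm9 chr2:60257131-60257190, minus strand: gctcccattagaaccaaactaaacaagatg
Pard3b probe, mm9 chr1:61816364-61816423, plus strand: gataaggatttgcacttttcgtgttgcctg
Robo2 probe, mm9 chr16:73894653-73894712, minus strand: caaatctgtttgacccattttgaatgagta
Npnt probe, mm9 chr3:132547399-132547458, minus strand: aaaggcgtggtcacacgggggagattggat
Clic5 probe, mm9 chr17:44416979-44417038, plus strand: caagccttactcaatgtaccacgcctttga
Nes probe, mm9 chr3:87784308-87784367, plus strand: atctcagcctgctgagatcttgtttctctc
Dach1 probe, mm9 chr14:98186124-98186183, minus strand: gcctagttatttgagcctggtttcaatgtg

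Between wild-type and ob/ob mice on vehicle, 4 of the 8 genes fell: Thsd7a, Pard3b, Robo2 and Dach1. None rose. Among all features 7.54% were called, 2.66% lower and 4.88% higher. For 6 of the 8 genes every ob/ob vehicle value lay below every wild-type value, as for 12.9% of all features, while 30.7% had no overlap in either direction. The median log2 change of the 8 genes was -0.73, beside 0.02 over all features. Among markers of other glomerular cells, 4 of 20 endothelial genes rose and none fell, and 3 of 16 mesangial genes rose and 1 fell. Of 12 parietal epithelial genes, 4 rose and 2 fell. The part of these cells in the result was not tested. In bulk glomerular RNA, fewer podocytes and less RNA per podocyte cannot be told apart.

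Among the membrane antigens, Thsd7a had wild-type levels of 4.94, 5.15 and 5.18. Its levels were 3.59, 3.79 and 3.46 in ob/ob vehicle and 3.58, 3.06 and 3.71 with enarodustat. Every wild-type value lay above every ob/ob value, by more than 1 on the log2 scale, and the ob/ob groups overlapped. The mean of 5.09 ± 0.13 in wild type stood against 3.61 ± 0.17 in ob/ob vehicle, a fall of 2.78-fold (log2 change -1.48 ± 0.18, adjusted p = 0.0038), which left 35.9% of the wild-type signal. This was the most negative change among the 8 genes.

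Thsd7a was read by 6 probes on chromosome 6, which spread from mm9 position 12260874 to 12415377, and 4 of them were well above background on all 9 arrays, with changes between -1.48 and -1.60. The probe at 12267147-12267206 gave wild-type levels of 3.63, 3.80 and 3.85 against 2.11, 2.40 and 1.96 in ob/ob vehicle (log2 change -1.60 ± 0.17, adjusted p = 0.0022). In a limma fit with each probe as its own feature, these 4 passed. The other 2 entered the test only through the wild-type group, so their values are no support. The probe at 12260874-12260933 cleared background on 1 array of ob/ob vehicle and 2 with enarodustat. The one at 12415318-12415377 was not well above background on any ob/ob vehicle array. It was at least 1.81-fold lower there, taking for each ob/ob array the lowest signal of any probe that cleared background, or the probe's own where higher (wild-type mean -4.18, measured ob/ob mean -5.63). The Lep locus is on the same chromosome, with its probe 16.8 Mb from the Thsd7a probe. Of 299 features within 20 Mb of the Lep probe, 29 were called, which is 9.7%, beside 7.54% of all features.

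Pla2r1, which encodes the phospholipase A2 receptor, did not pass the test in any comparison. The wild-type levels were 1.36, 1.39 and 0.47, those of ob/ob vehicle 0.97, 1.21 and 1.15, and those with enarodustat 1.25, 1.02 and 0.98. The groups overlapped, and the lowest of the 9 values was that of wild-type replicate 3, one of the arrays with high proximal tubule markers. The log2 change in ob/ob vehicle was 0.03 ± 0.24 (95% confidence interval -0.51 to 0.57, adjusted p = 0.95). Without wild-type replicate 3 it was -0.27 (adjusted p = 0.32). Its single probe was well above background on all 9 arrays.

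**Figure D1:**
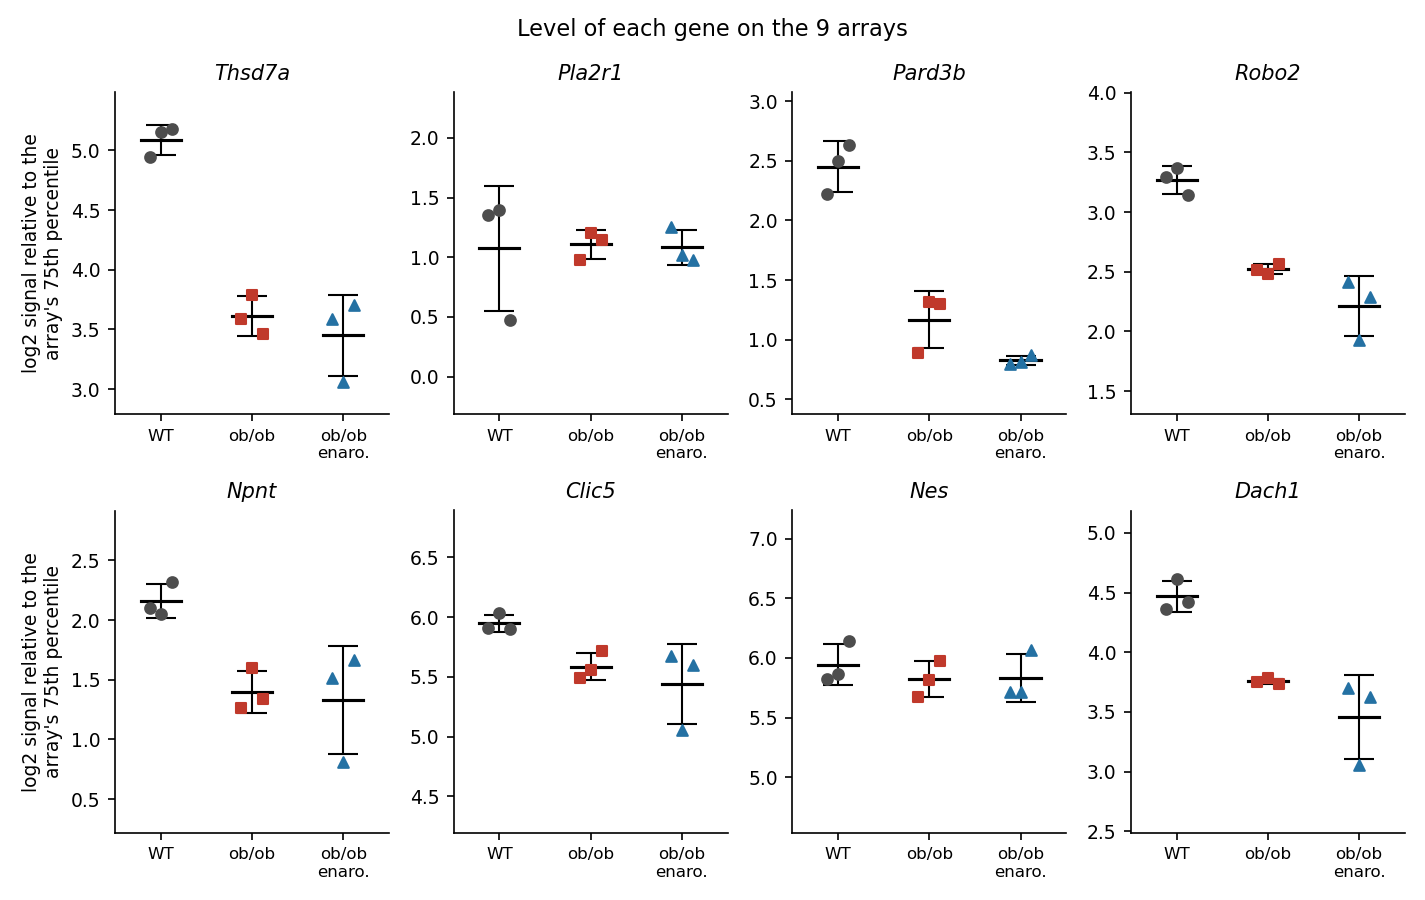
Level of each of the 8 genes on each array, as log2 signal relative to the array's 75th percentile, with points for the 3 arrays of a group and bars for the mean ± SD; every panel spans the same range of log2 units. Thsd7a lay between 4.94 and 5.18 in wild type and at or below 3.79 in all 6 ob/ob samples, whereas the Nes and Pla2r1 groups overlapped.

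For polarity, Pard3b encodes a scaffold related to PARD3, which organises apical and junctional domains of epithelial cells. The Pard3b levels were 2.22, 2.50 and 2.63 in wild type, 0.89, 1.31 and 1.30 in ob/ob vehicle, and 0.80, 0.82 and 0.87 with enarodustat. At this probe the groups stood in 3 separate bands, with the enarodustat samples lowest, while at most of its other probes the ob/ob groups overlapped. Pard3b fell by 2.43-fold in ob/ob vehicle (means 2.45 ± 0.21 and 1.17 ± 0.24, log2 change -1.28 ± 0.15, adjusted p = 0.0036). Its 4 probes are spread along chromosome 1 from mm9 position 61816364 to 62688229, and each passed with a negative change, between -1.0 and -1.51. The probe farthest from the first, at 62688170-62688229, gave 1.91, 2.18 and 2.13 in wild type and 1.14, 1.1 and 0.97 in ob/ob vehicle.

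Robo2, the SLIT receptor, had levels of 3.29, 3.37 and 3.14 in wild type. Those in ob/ob vehicle were 2.51, 2.48 and 2.57, and those with enarodustat 2.42, 1.93 and 2.29. Again the 3 groups did not overlap at this probe, in the order wild type, ob/ob vehicle, ob/ob enarodustat. At most of its other tested probes the ob/ob groups overlapped. Robo2 fell by 1.68-fold in ob/ob vehicle (3.27 ± 0.12 to 2.52 ± 0.04, log2 change -0.74 ± 0.14, adjusted p = 0.017). The call was lost, with adjusted p values of 0.065, 0.061 and 0.057, without wild-type replicate 2, ob/ob replicate 1 or ob/ob replicate 2. Of its 8 probes on chromosome 16, 7 passed the filter, with changes between -0.72 and -0.96, of which 6 passed the test. The array's 60-base Robo2 probes at 73896049-73897284 and 73928398-73933866 span 1236 and 5469 bases of the genome, so each crosses at least 1 intron, and both fell (-0.82 ± 0.15, adjusted p = 0.014, and -0.87 ± 0.22, adjusted p = 0.047). The remaining probe was well above background on 2 wild-type arrays, on none of ob/ob vehicle and on 1 with enarodustat, and was not tested.

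The adhesion ligand gene Npnt had wild-type levels of 2.10, 2.05 and 2.32, ob/ob vehicle levels of 1.26, 1.60 and 1.34, and enarodustat levels of 1.51, 0.81 and 1.67. All ob/ob values lay under all wild-type values, yet the ob/ob vehicle change of -0.76 ± 0.22 missed the threshold (95% confidence interval -1.26 to -0.26, adjusted p = 0.074). The SD within the enarodustat group, 0.45, was the largest of the 3 groups, and that group enters the shared estimate of the spread. With only the 2 groups compared in the fit the adjusted p was 0.035, and without enarodustat replicate 2 it was 0.019. Of 25 alternatives, 5 gained the call, 19 left Npnt uncalled with the same sign and 1 changed the sign.

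Clic5, which encodes a chloride intracellular channel protein of the foot process, had levels of 5.91, 6.03 and 5.90 in wild type, 5.49, 5.56 and 5.71 in ob/ob vehicle, and 5.67, 5.05 and 5.60 with enarodustat. The wild-type values were the 3 highest. The difference in ob/ob vehicle was small and did not pass (log2 change -0.36 ± 0.17, interval -0.75 to 0.02, adjusted p = 0.24). A second Clic5 probe, with a wild-type mean of -2.03 ± 0.18, gave a change of -0.16 ± 0.14 (adjusted p = 0.52).

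Nes had levels of 5.83, 5.86 and 6.14 in wild type, 5.67, 5.82 and 5.98 in ob/ob vehicle, and 5.72, 5.71 and 6.07 with enarodustat. The 3 groups overlapped throughout. The change in ob/ob vehicle was -0.12 ± 0.15 (interval -0.46 to 0.22, adjusted p = 0.68), so a change as large as that of Robo2 or Dach1 lies outside the interval of Nes.

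Dach1 had wild-type levels of 4.36, 4.62 and 4.42. The ob/ob vehicle samples were close together at 3.75, 3.78 and 3.74, and those with enarodustat were at 3.70, 3.06 and 3.63. The groups did not overlap. Dach1 fell by 1.64-fold in ob/ob vehicle (4.47 ± 0.13 to 3.76 ± 0.02, log2 change -0.71 ± 0.17, adjusted p = 0.043). That call lay near the threshold and was lost in 14 of 25 alternatives, among them the array median as the scaling (adjusted p = 0.089) and leaving out any of the 6 arrays compared (0.065 to 0.14).

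**Figure D2:**
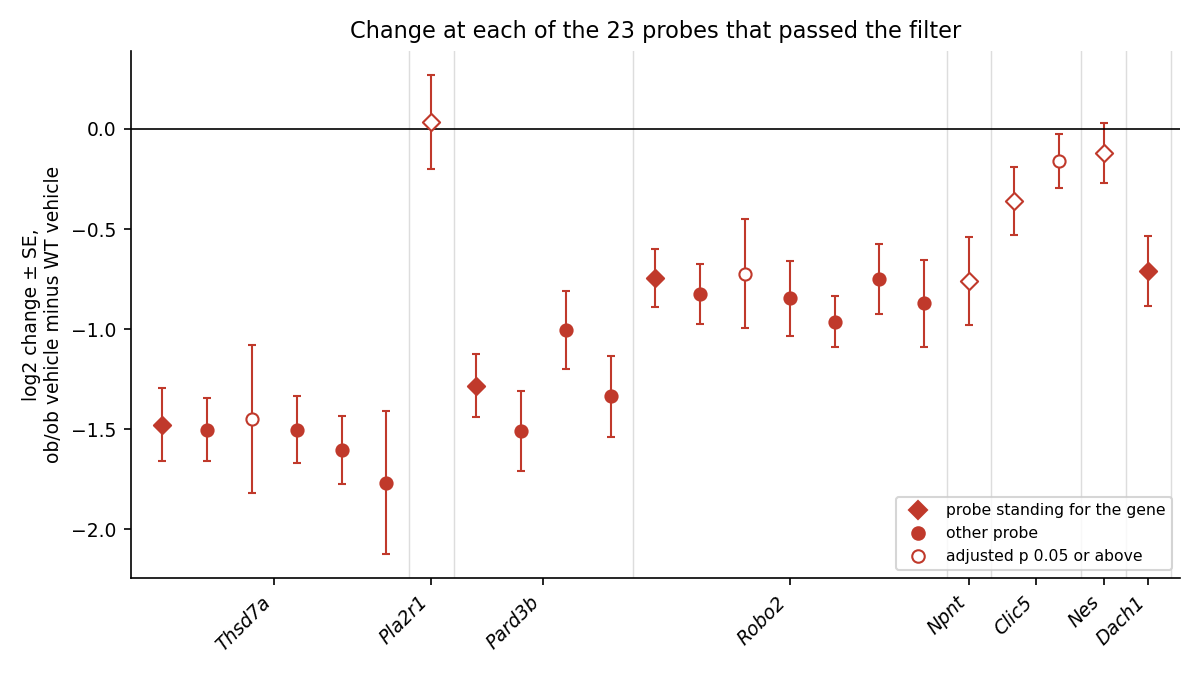
Log2 change ± SE from wild-type vehicle to ob/ob vehicle at the 23 probes of the 8 genes that passed the filter; diamonds mark the probe that stands for a gene, and open symbols an adjusted p of 0.05 or above. The 4 Thsd7a probes well above background on all arrays lie between -1.48 and -1.60 and the other 2, dim in ob/ob, at -1.45 and -1.77, the 4 of Pard3b between -1.0 and -1.51 and the 7 of Robo2 between -0.72 and -0.96.

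Of 21 probes of the 8 genes that were well above background on all arrays, 15 fell and none rose in ob/ob vehicle, where 7.21% of 36671 probes were called and 3.01% were called lower. In enarodustat against wild type 17 of the 21 fell, where 9.62% of probes were called and 4.45% were called lower. These shares are over all tested probes, which include some not well above background on every array, so the sets differ. Probes of 1 gene share their transcript and are not independent of each other. Array position was related to the groups. All wild-type arrays and that of ob/ob replicate 1 were in 1 row of a slide, and the other ob/ob vehicle arrays and 2 of the enarodustat arrays were in the other row. With the slide row as a block, an alternative added after the data were seen, Pard3b passed (adjusted p = 0.049) and Thsd7a (0.077), Robo2 (0.21) and Dach1 (0.30) did not. Far fewer of all features were called with that block as well, and the counts are in the closing section. Within the first row, ob/ob replicate 1 alone lay below the wild-type mean by -1.50 for Thsd7a, -1.56 for Pard3b, -0.75 for Robo2 and -0.71 for Dach1. That arm is 1 array, so these are values with no test.

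The second comparison, of enarodustat with vehicle in ob/ob mice, asks whether the drug moved these genes. None of the 8 genes passed, as none of the 24142 features did (0%; 1693 of them, or 7.01%, had an unadjusted limma p under 0.05). The log2 changes of the 8 genes ran from -0.34 to 0.01, with a median of -0.15 beside -0.03 over all features. Pard3b (-0.34 ± 0.15, interval -0.69 to 0.01, adjusted p = 0.71), Robo2 (-0.31 ± 0.14, interval -0.63 to 0.01, adjusted p = 0.71) and Dach1 (-0.30 ± 0.17, interval -0.69 to 0.10, adjusted p = 0.76) had enarodustat values that all lay under the ob/ob vehicle values. Among all features 9.49% were lower without overlap, 6.5% higher and 16% either. At most other tested probes of Pard3b and Robo2 the ob/ob groups overlapped. The log2 changes at those other probes ran from -0.46 to -0.04 for Pard3b and from -0.36 to 0.01 for Robo2. The interval of Thsd7a, -0.58 to 0.25, does not reach the 1.48 by which ob/ob vehicle lay below wild type.

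Enarodustat replicate 2 was the lowest of its group for Thsd7a, Robo2, Npnt, Clic5, Nes and Dach1, and it was the array of that group with the high proximal tubule markers. The summed level of the 23 markers ranged from 5.96 to 7.98 in the enarodustat group, from 5.39 to 6.41 in ob/ob vehicle and from 6.47 to 9.40 in wild type, and 22 of the 23 were well above background on every array. Without this array the changes from ob/ob vehicle were 0.03 for Thsd7a, -0.17 for Robo2, 0.19 for Npnt, 0.05 for Clic5 and -0.10 for Dach1, and Pard3b stayed at -0.34. Without it and wild-type replicate 3 together, Thsd7a, Pard3b, Robo2, Dach1 and Npnt fell in ob/ob vehicle, with changes between -0.68 and -1.43.

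The third comparison set the enarodustat group against wild type, and shares its arrays with the others. Here 5 of the 8 genes fell, where 10.2% of all features were called and 4.09% were called lower. The enarodustat values of 6 genes, Npnt and Clic5 among them, lay below all wild-type values, as for 14% of all features, with 30.8% not overlapping in either direction. Thsd7a was 3.12-fold lower (log2 change -1.64 ± 0.18, adjusted p = 0.0029), Pard3b 3.08-fold (-1.62 ± 0.15, adjusted p = 0.0020), Robo2 2.08-fold (-1.06 ± 0.14, adjusted p = 0.0050) and Dach1 2.01-fold (-1.01 ± 0.17, adjusted p = 0.010). Npnt was 1.77-fold lower (-0.83 ± 0.22, adjusted p = 0.049), a call that was lost in 15 of 25 alternatives, including the one without enarodustat replicate 2 (-0.57, adjusted p = 0.072). Clic5 (-0.51 ± 0.17, adjusted p = 0.096), Nes (-0.11 ± 0.15, adjusted p = 0.69) and Pla2r1 (0.01 ± 0.24, adjusted p = 0.99) did not pass. For Clic5, 4 of 25 alternatives gained the call, 20 left it uncalled with the same sign and 1 changed the sign. With the slide row as a block none of the 8 passed, with adjusted p values from 0.087 for Pard3b upward, as none of all features did. Wild-type and enarodustat arrays shared no slide row, so with this block they were linked only through the ob/ob vehicle arrays.

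**Figure D3:**
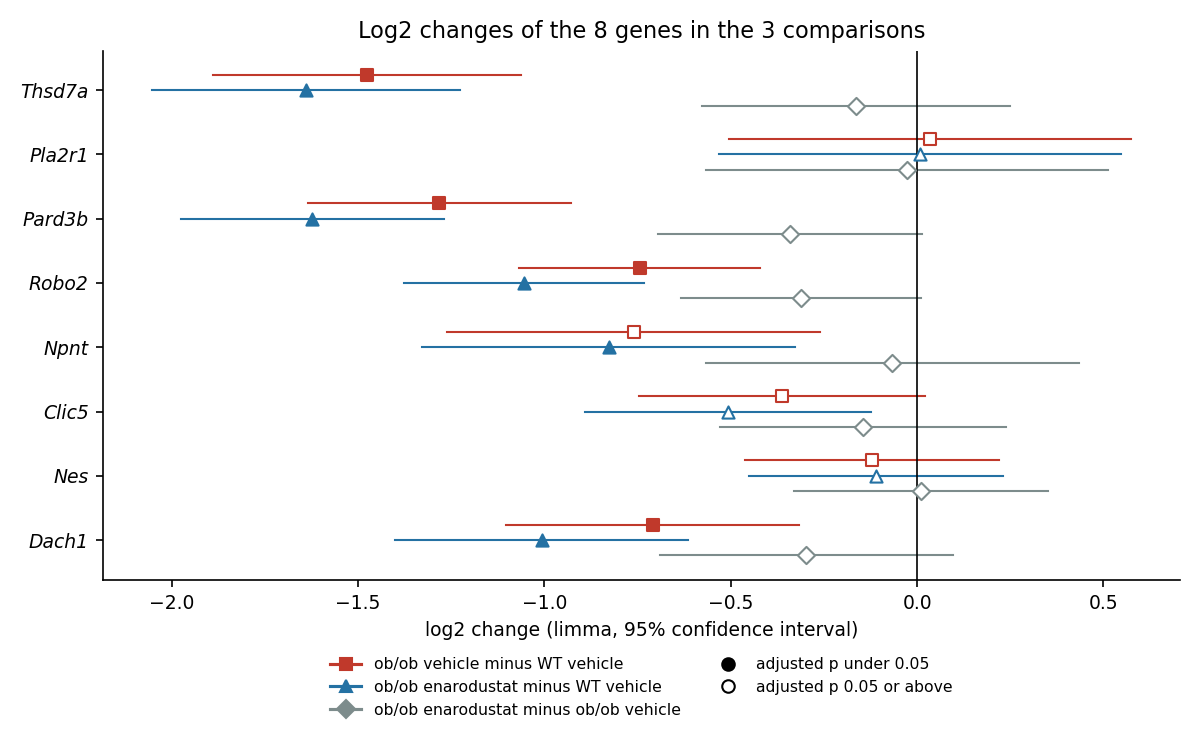
Log2 changes of the 8 genes in the 3 comparisons with 95% confidence intervals of the limma fit; filled symbols have an adjusted p under 0.05. Thsd7a and Pard3b are farthest from 0 in both comparisons with wild type, and none of the 8 changes from ob/ob vehicle to enarodustat is filled.

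The 8 genes were then set beside other podocyte genes of the same arrays. Of 35 podocyte core genes, which exclude the 8, 13 fell in ob/ob vehicle, none rose, and their median change was -0.72. With enarodustat against wild type 23 fell, with a median of -1.02. Among them Nphs1, which encodes nephrin of the slit diaphragm, had a log2 change of -1.03 ± 0.22 (adjusted p = 0.027), Magi2, a slit diaphragm scaffold gene, fell by 0.98 ± 0.13 (adjusted p = 0.0049) and Wt1, a podocyte transcription factor gene, by 0.87 ± 0.21 (adjusted p = 0.043). The Nphs1 call was lost in 4 of the 9 fits that left out 1 array and that of Wt1 in 7 and with the array median (adjusted p = 0.082). Synpo, the synaptopodin gene, did not pass (-0.71 ± 0.19, adjusted p = 0.057). Col4a3, chosen after its value was seen, was the sole core gene with a more negative change than Thsd7a or Pard3b (-1.60 ± 0.48, adjusted p = 0.085).

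The median level of the core genes was 4.41, 4.67 and 4.81 in wild type, 3.53, 3.90 and 3.95 in ob/ob vehicle, and 3.68, 3.33 and 3.87 with enarodustat. Subtracting it from each array, an alternative added after the data were seen, gave calls for 71.7% of all features, nearly all of them higher. Thsd7a stood at 0.53, 0.48 and 0.36 relative to the core median in wild type and at 0.06, -0.11 and -0.49 in ob/ob vehicle. The groups did not overlap, and Thsd7a was still lower relative to the core (-0.64 ± 0.24, interval -1.16 to -0.12, adjusted p = 0.030), a call that 0.476% of all features had in that direction. It was lost in 6 of the 9 fits that left out 1 array, those without any of the wild-type arrays (adjusted p = 0.058, 0.095 and 0.052), ob/ob replicate 2 (0.062), ob/ob replicate 3 (-0.49, 0.14) or enarodustat replicate 1 (0.052). Pard3b also had groups that did not overlap (-2.19, -2.17 and -2.18 against -2.64, -2.59 and -2.65), but the change of -0.45 ± 0.24 missed the threshold (interval -0.96 to 0.06, adjusted p = 0.10).

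Robo2, Npnt and Dach1 had changes of 0.09, 0.08 and 0.13 relative to the core median in ob/ob vehicle, none of which passed, and their groups overlapped. Clic5 (0.47 ± 0.24, adjusted p = 0.089), Nes (0.72 ± 0.24, interval 0.21 to 1.22, adjusted p = 0.017) and Pla2r1 (0.87 ± 0.32, interval 0.19 to 1.56, adjusted p = 0.027) were higher relative to the core in every ob/ob vehicle sample than in any wild-type sample. Without wild-type replicate 3 the Pla2r1 change was 0.48 ± 0.28 (adjusted p = 0.14), and its call was also lost without ob/ob replicate 1 (0.084) or 2 (0.052). Nes missed the threshold when wild-type replicate 2 (0.079) or ob/ob replicate 1 (0.053) was left out. In that direction 71.2% of all features were called, so the relative rises of Nes and Pla2r1 are those of most features. In enarodustat against wild type, where 82.5% of features were called relative to the core, 82.1% higher and 0.381% lower, Thsd7a (-0.64 ± 0.24, adjusted p = 0.026) and Pard3b (-0.62 ± 0.24, adjusted p = 0.027) fell relative to it, and each call was lost in 4 of those 9 fits. With the core median as a covariate in place of subtraction, none of the 8 genes passed, and the changes were -0.90 for Thsd7a (adjusted p = 0.62), -0.77 for Pard3b (0.60), -0.51 for Robo2 (0.84) and -0.23 for Dach1 (0.97). That covariate follows the groups closely, since no ob/ob sample reached the lowest wild-type value of 4.41, and 3 features in all were called with it.

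**Figure D4:**
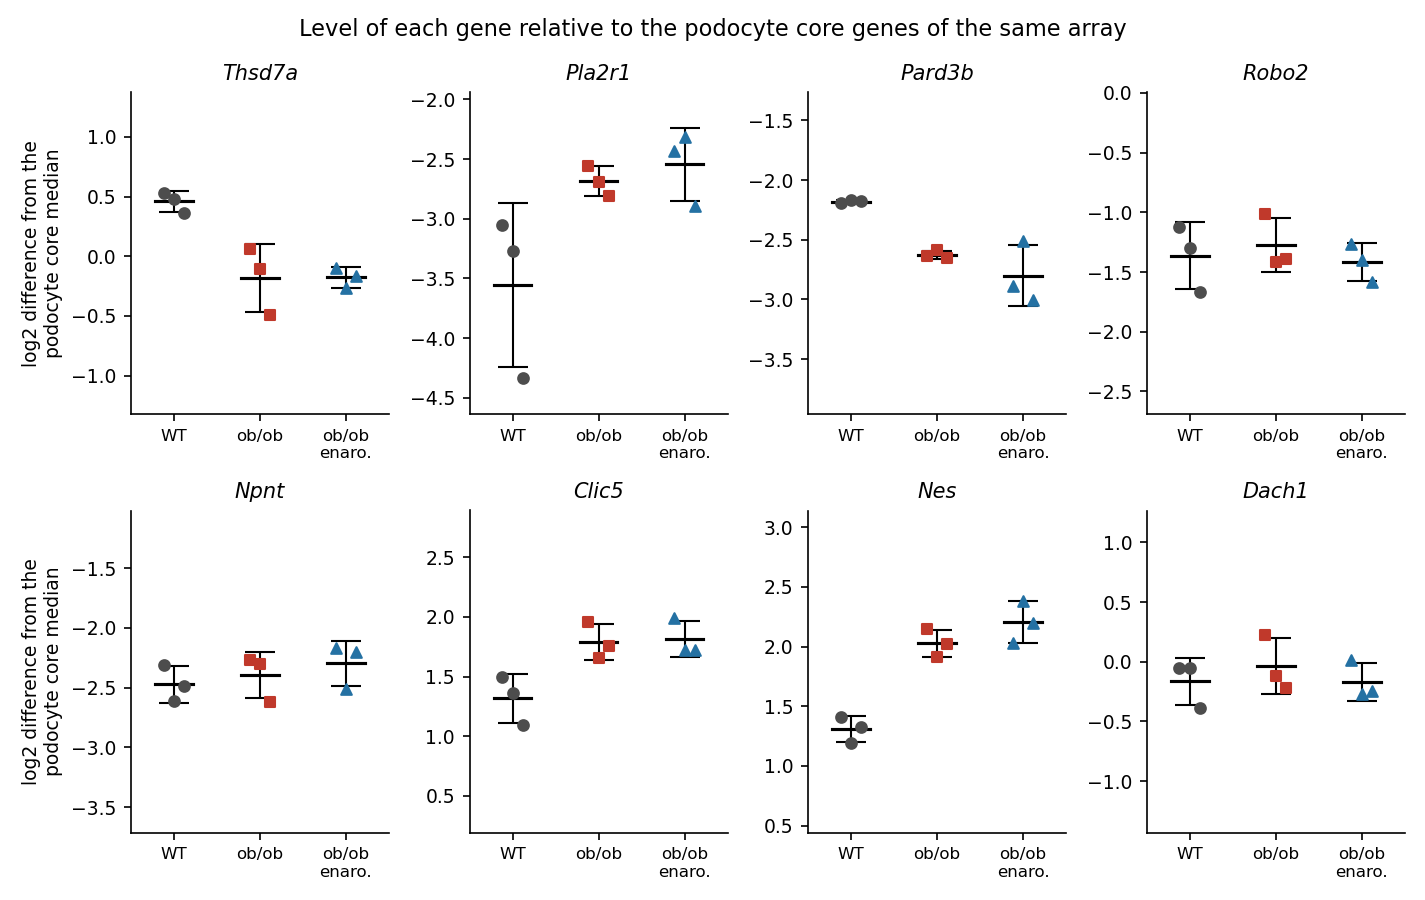
Level of each of the 8 genes minus the median of 35 podocyte core genes on the same array, in log2 units, with points for arrays and bars for the mean ± SD; every panel spans the same range. Thsd7a and Pard3b sit lower in ob/ob than in wild type, Robo2, Npnt and Dach1 overlap, and Clic5, Nes and Pla2r1 sit higher.

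The genes around each of the 8 were followed through lists of partners and relatives. Beside each count in ob/ob vehicle stand the shares over all features, 7.54% called, 4.88% higher and 2.66% lower. A count near these shares is no result about its list. Of 12 tested genes for other proteins named as antigens in membranous nephropathy or related to them, 2 rose and 1 fell in ob/ob vehicle. Pcdh7, which encodes protocadherin 7, rose from -3.86 ± 0.15 to -0.68 ± 0.27 (9.06-fold, log2 change 3.18 ± 0.18, adjusted p = 0.00017), at all 3 of its probes. With normexp background correction its change was 1.66. Ext1, which encodes a heparan sulfate polymerase, rose by 0.77 ± 0.12 (adjusted p = 0.0080), and Ncam1, a neural cell adhesion molecule gene, fell by 1.60 ± 0.18 (adjusted p = 0.0033), at all 5 of its probes. Of 7 genes of the PLA2R1 family and its secreted phospholipase ligands none passed, among them the mannose receptor family gene Mrc2 (0.23 ± 0.17, adjusted p = 0.46).

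The thrombospondin type 1 repeats that THSD7A carries are shared by secreted matrix proteins, and in that list 5 of 8 genes rose and none fell, with a median change of 0.81. Spon2, which encodes a secreted spondin, had wild-type levels of -0.85, -2.99 and -0.61 and ob/ob vehicle levels of 2.03, 3.56 and 3.75 (24.2-fold, adjusted p = 0.0060), and its fold is approximate given the spread in wild type. Thbs1, the thrombospondin 1 gene, rose by 1.82 ± 0.26 (adjusted p = 0.0058), Thbs2 by 0.77 ± 0.17 (adjusted p = 0.028) and Adamtsl1, of an ADAMTS-like matrix protein, by 1.20 ± 0.29 (adjusted p = 0.042). The Thbs2 call was lost in 5 of the 9 fits without 1 array and that of Adamtsl1 in 8. With normexp Adamtsl1 did not pass (0.45, adjusted p = 0.057). With enarodustat Thbs1 was at 2.92, 2.55 and 2.65, below the ob/ob vehicle values of 3.93, 3.89 and 3.31, and the log2 change of -1.01 did not pass (adjusted p = 0.68). Spon2 was at 1.53, 1.42 and 2.15, which overlapped with ob/ob vehicle, and its change of -1.41 did not pass either (adjusted p = 0.71). For the closest relative, Thsd7b, none of 5 probes was well above background on any array. Macrophage markers rose with the disease as well: 10 of 16 were called higher in ob/ob vehicle, and their summed level ranged from 6.09 to 6.26 in wild type and from 6.67 to 6.76 in ob/ob vehicle. Their part in the rise of these matrix genes was not tested.

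Among 19 genes of the cell polarity complexes, 2 fell and none rose, beside a median change of -0.17. Patj, of the Crumbs complex, fell by 0.96 ± 0.13 (adjusted p = 0.0054) and Crb2, the Crumbs protein that podocytes use, by 0.95 ± 0.17 (adjusted p = 0.012). Pard3, the paralogue of Pard3b, was at 1.06 ± 0.24 in wild type and 0.92 ± 0.16 in ob/ob vehicle and did not pass (-0.14 ± 0.15, adjusted p = 0.64). The Pard3 probes disagreed, with changes between -1.36 and 0.03, of which 1 passed.

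Of 15 genes of SLIT and ROBO signalling, 1 rose and none fell. It was Robo4, an endothelial relative of Robo2 (0.60 ± 0.13, adjusted p = 0.033), and the call was lost in 6 of the 9 fits without 1 array and with the array median as the scaling (adjusted p = 0.051). Robo1 (0.33 ± 0.25, adjusted p = 0.46) and the ligand genes Slit2 (0.85 ± 0.55, adjusted p = 0.40) and Slit3 (0.31 ± 0.27, adjusted p = 0.53) did not pass. The Slit2 levels varied widely, from -5.19 to -2.68 in wild type and from -3.62 to -2.62 in ob/ob vehicle, and stood at -2.10, -1.57 and -1.83 with enarodustat. The enarodustat change from wild type for Slit2, 2.08 ± 0.55 (adjusted p = 0.049), was lost in 8 of the 9 fits without 1 array, and with normexp it was 0.84. The summed level of 13 distal nephron markers ranged from 6.29 to 7.18 with enarodustat, from 2.51 to 5.27 in ob/ob vehicle and from 3.13 to 6.73 in wild type, and their part was not tested.

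In the list of nephronectin, integrins and matrix adhesion, 2 of 21 genes rose and 2 fell. Itgb8, the integrin beta-8 gene, fell by 1.53 ± 0.15 (adjusted p = 0.0016) at all 4 of its probes and by 2.01 ± 0.15 with enarodustat against wild type (adjusted p = 0.00069). Fras1 and the FRAS1-related genes Frem1 and Frem2, whose proteins form a basement membrane complex that binds nephronectin, moved in opposite directions. Fras1 fell by 1.56 ± 0.24 (adjusted p = 0.0075), while Frem1 rose by 1.78 ± 0.23 (adjusted p = 0.0042) and Frem2 by 0.84 ± 0.15 (adjusted p = 0.012). With normexp background correction the changes were -0.78 for Fras1, 0.95 for Frem1 and 0.53 for Frem2. A second Fras1 probe did not pass (-0.48), nor did another of Frem1 (0.59). The Frem2 call was lost without wild-type replicate 2, and its other probes did not pass. The genes of the nephronectin receptor itself, Itga8 (0.41 ± 0.30, adjusted p = 0.45) and Itgb1 (0.41 ± 0.13, adjusted p = 0.089), did not pass.

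Around Clic5, 2 of 12 genes rose and 2 fell. Ezr, the ezrin gene, fell by 0.87 ± 0.18 (adjusted p = 0.024) and Clic3 by 0.87 ± 0.17 (adjusted p = 0.020), while Msn, which encodes the ezrin relative moesin, rose by 0.66 ± 0.10 (adjusted p = 0.0078) and Clic4 by 0.69 ± 0.14 (adjusted p = 0.020). The Ezr call was lost in 5 of the 9 fits without 1 array, and those of Clic3 and Clic4 in 3 each. A second Clic4 probe gave -0.17, and 1 of 3 Msn probes passed. Podxl, which encodes podocalyxin, the sialoprotein of the foot process surface, had 5.13, 5.23 and 5.24 in wild type and 4.54, 4.36 and 4.43 in ob/ob vehicle, without overlap, and missed the threshold (-0.75 ± 0.20, adjusted p = 0.056). Of 10 genes of nestin and other intermediate filaments none passed, Vim, the vimentin gene, included (0.44 ± 0.17, adjusted p = 0.15). Of 11 genes of the Dach, Six-family and Eya genes none passed either, and the paralogue Dach2 had 5 probes of which none was well above background on any array.

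**Figure D5:**
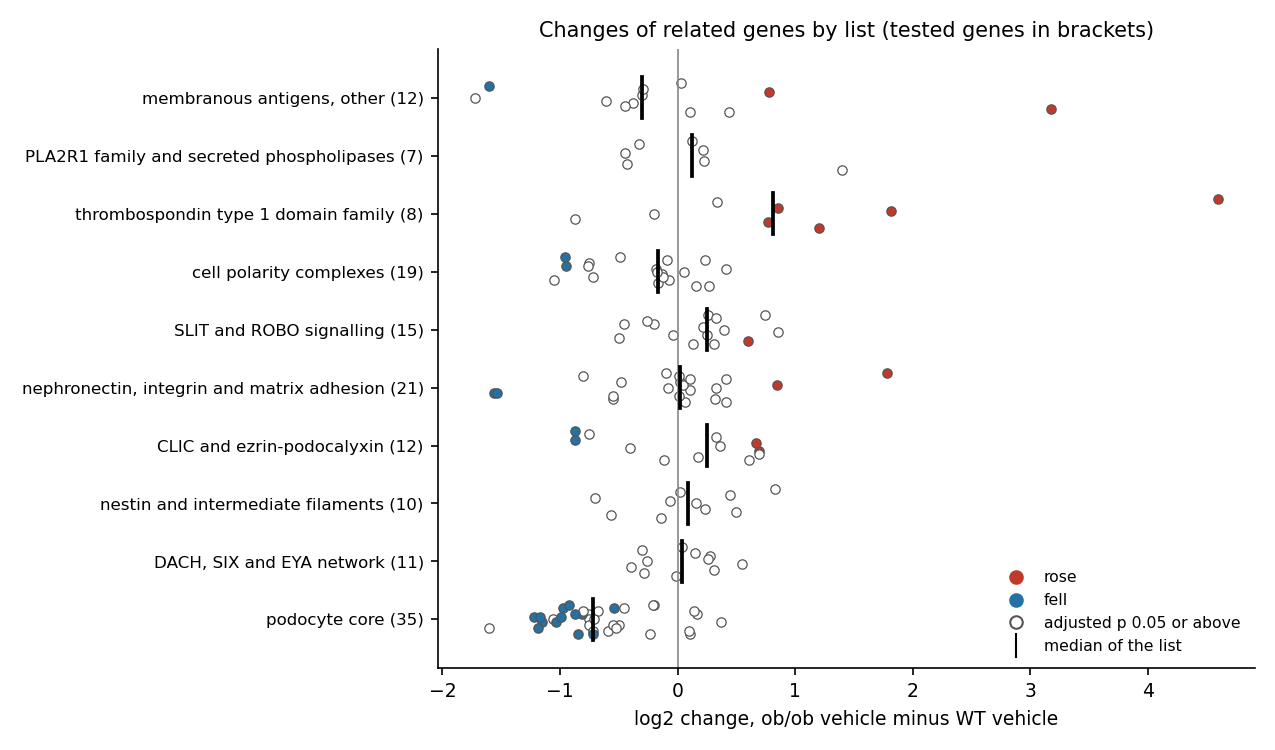
Log2 change from wild-type vehicle to ob/ob vehicle of each tested gene in the 9 partner lists and the podocyte core list, with a bar at the median of each list; red genes rose, blue genes fell and open ones had an adjusted p of 0.05 or above. The podocyte core genes lie mostly left of 0, with a median of -0.72, and the thrombospondin domain genes mostly right, with a median of 0.81.

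The genes most like each of the 8 had the smallest root mean square (RMS) difference of centred log2 values over the 9 arrays. The candidates were 15420 genes that passed the filter on dim probes. Nearest to Thsd7a were Wt1os, the antisense transcript of the Wt1 locus, at an RMS difference of 0.13, Klhl32 at 0.14 and Ntng2 at 0.16. The median over the candidates was 0.81, and the nearest genes lie under it by how they were chosen. Nearest to Pard3b were Sp6 (0.17), Wt1os (0.17) and Spats2l (0.19). For Robo2 they were Qpct (0.073), Abca5 (0.089) and Cdc14a (0.089). For Dach1 they were Synpo (0.062), the gene of the actin-binding foot process protein synaptopodin, Fnbp1l (0.071) and Galnt10 (0.085), and for Npnt they were Arhgap24 (0.12), Synpo (0.13) and Masp2 (0.15). Synpo and Arhgap24 are podocyte core genes. Clic5 was nearest to Qk, Nrd1 and Golm1 (0.095 to 0.098). Nes, which varied least (SD over the arrays 0.16), was nearest to Vps37c, Vars and Zfyve9, and Pla2r1 to Lsm3, H1f10 and Stard6. Among the 8 genes themselves, Dach1 and Robo2 were the closest pair (RMS difference 0.082).

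The promoters of the genes that fell in ob/ob vehicle are shown. These genes were chosen by that call, so their shared direction follows from the choice. The promoter windows are described only. They come from RefSeq for build GRCm38.p6, 250 bases before to 50 bases after the start site, and all 8 genes matched, with 11 promoters of 32851. Both strands were searched for the E-box CAGCTG, the HIF core ACGTG, the homeodomain letters TAATTA, the forkhead letters GTAAACA, the MAF motif TGCTGAC, the GC box GGGCGG and TATAAA. Capitals mark the E-box and HIF core letters.
Thsd7a promoter, GRCm38.p6 chr6:12749204-12749503, minus strand: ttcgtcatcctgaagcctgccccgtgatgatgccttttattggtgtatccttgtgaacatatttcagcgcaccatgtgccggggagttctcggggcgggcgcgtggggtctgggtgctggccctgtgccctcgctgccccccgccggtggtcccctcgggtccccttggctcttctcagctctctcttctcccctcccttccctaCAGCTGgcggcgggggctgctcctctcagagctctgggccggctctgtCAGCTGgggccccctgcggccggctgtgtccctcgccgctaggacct
Pard3b promoter, GRCm38.p6 chr1:61638574-61638873, plus strand: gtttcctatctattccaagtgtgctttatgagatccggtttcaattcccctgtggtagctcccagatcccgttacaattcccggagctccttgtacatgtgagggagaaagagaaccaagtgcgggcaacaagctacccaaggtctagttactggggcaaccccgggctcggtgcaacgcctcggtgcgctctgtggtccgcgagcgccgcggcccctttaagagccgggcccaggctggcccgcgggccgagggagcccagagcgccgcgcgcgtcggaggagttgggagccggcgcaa
Robo2 promoter 1, GRCm38.p6 chr16:75447244-75447543, minus strand: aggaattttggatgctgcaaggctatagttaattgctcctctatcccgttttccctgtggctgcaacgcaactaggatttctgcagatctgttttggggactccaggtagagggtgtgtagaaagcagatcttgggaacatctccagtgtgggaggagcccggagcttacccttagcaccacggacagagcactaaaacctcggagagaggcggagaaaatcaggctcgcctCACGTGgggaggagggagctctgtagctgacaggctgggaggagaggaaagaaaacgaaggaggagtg
Dach1 promoter, GRCm38.p6 chr14:98169716-98170015, minus strand: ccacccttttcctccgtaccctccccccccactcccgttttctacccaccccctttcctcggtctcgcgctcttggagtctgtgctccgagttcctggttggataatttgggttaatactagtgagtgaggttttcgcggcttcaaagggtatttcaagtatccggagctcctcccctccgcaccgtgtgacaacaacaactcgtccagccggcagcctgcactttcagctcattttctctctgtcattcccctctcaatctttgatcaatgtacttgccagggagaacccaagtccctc

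The Thsd7a promoter holds the E-box letters at -45 and at 3, counted from the start site as 0, where 16.3% of all promoters hold them. Robo2 has 3 annotated promoters, of which the third also holds an E-box, at -37, and the first holds the HIF core letters at -18 and, overlapping on the other strand, at -17. The letters ACGTG were present in 19.62% of all promoters, and no other form of the HIF core was searched. No homeodomain, forkhead, MAF or TATA letters were found in any of the 11 windows. GC box letters, present in 35.66% of all promoters, were found for Thsd7a, Pla2r1, Npnt, Clic5 and Nes, and not for Pard3b, Robo2 or Dach1. The Pard3b and Dach1 windows held none of the letters searched. A match describes letters in a window only.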

How the data were processed

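Total RNA of isolated glomeruli from 9 samples was Cy3-labelled for single-colour Agilent arrays, per the labels' protocols. Per the submitters' processing notes, the authors used Agilent Feature Extraction 11.5.1.1 and limma, the role of limma not being stated. The deposited scanner files hold each spot's intensity on a linear scale, background-subtracted, and mm9 probe positions, per the file headers. The deposited value table of the series holds log2 values of the authors whose scale is not stated. Each column matched the log2 processed signal of its array minus a constant near the 75th percentile, within 0.05 for 100% of probes, so no centring of genes was found, and the columns' medians were -3.07, -3.03 and -2.93 (wild type), -3.1, -3.06 and -3.06 (ob/ob vehicle), and -3.04, -2.95 and -3.05 (enarodustat).

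Control spots (3671 of 62976) and outlier spots were left out, and 32 probes with only outlier spots were removed. Values were log2 of the processed intensity minus each array's 75th percentile. A probe was kept when all arrays of 1 or more groups had it well above background (36671 of 56573), and the probe with the highest mean stood for a gene, which gave 24142 features. Names came from the RefSeq table of GRCm38.p6: accessions named 33862 probes, symbols 9465 and synonyms 488, while 2516 carry the array's own name and 10242 no name. Limma 3.58.1 in R 4.3.3 (lmFit, contrasts.fit, eBayes) was fitted over 3 groups, with Benjamini-Hochberg adjustment over all features and a threshold of 0.05. The fit was tested on simulated data. Figures were drawn with matplotlib 3.10.9 in Python 3.11.15.

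Named are the 8 genes with every probe, up to 4 called genes of each list in ob/ob vehicle against wild type by smallest p and up to 2 in enarodustat against ob/ob vehicle, 13 partners and 6 podocyte genes always named (1 of which is not reported here), and the 3 genes most like each of the 8. Exceptions chosen after seeing their values are marked. The 8 genes, the lists and the alternatives were chosen with earlier results of these data known. Alternatives covered normalization, background, probe choice, filter, array weights, blocks for replicate number, slide and slide row, tubule and podocyte covariates, and leaving out arrays. The number of arrays limits the precision. The array of enarodustat replicate 3 was alone on its slide and scan.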

Additional observations from a re-analysis of the deposited data

How the results depend on the processing

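The number of features called in ob/ob vehicle against wild type was 1820. It was 1004 with no filter on dim probes, 4173 with array weights, 652 with the proximal tubule covariate, 3 with the podocyte core covariate, 74 with the slide row as a block and 908 to 1770 when 1 array was left out. Of the 8 genes 4 were called, 0 with the podocyte core covariate, 1 with the slide row and 2 to 5 when 1 array was left out. For enarodustat against wild type the features called were 2458, with 1225 with no filter, 4526 with weights, 1361 with the slide block, 1 with the core covariate, 1291 once wild-type replicate 3 and enarodustat replicate 2 were left out, 0 with the slide row and 1212 to 2161 when 1 array was left out. The 8 genes gave 5 calls, 0 with the core covariate, 0 with the slide row and 4 to 5 when 1 array was left out. Enarodustat against ob/ob vehicle gave 0 calls in limma under each of these settings, and 3 (none of the 8 genes) once the podocyte core median was subtracted, or 0 to 146 when 1 array was also left out. The cause of these differences was not tested.

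The replicate numbers did not pair the samples: the correlations of same-numbered deviations ran from -0.31 to 0.27. With the replicate number as a block 1406, 0 and 1949 features and 3, 0 and 4 of the 8 genes were called in the 3 comparisons, and Dach1 (ob/ob vehicle against wild type, adjusted p = 0.088) and Npnt (enarodustat against wild type, adjusted p = 0.075) were lost.

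Changes of sign concerned uncalled values, apart from Npnt in enarodustat against wild type. In ob/ob vehicle against wild type, the podocyte core covariate gave 0.16 for Clic5, 0.39 for Nes, 0.054 for Npnt and -0.22 for Pla2r1. Pla2r1 was also -0.016 with quantile normalization, -0.022 with normexp, -0.21 with weights, -0.28 with the tubule markers in the fit, -0.27 without wild-type replicate 3, alone or with enarodustat replicate 2, -0.01 without ob/ob replicate 2 and -0.10 with the slide row. In enarodustat against wild type, the core covariate gave 0.12 for Clic5, 0.50 for Nes, 0.15 for Npnt and -0.29 for Pla2r1. Without wild-type replicate 3 and enarodustat replicate 2, Nes was 0.048 and Pla2r1 -0.26. Pla2r1 was also -0.015 with quantile normalization, -0.024 with normexp, -0.22 with weights, -0.10 with the tubule markers in the fit, -0.29 without wild-type replicate 3, -0.08 without enarodustat replicate 1 and -0.14 with the slide row. In enarodustat against ob/ob vehicle, leaving out enarodustat replicate 2, alone or with wild-type replicate 3, gave 0.049 for Clic5, 0.19 for Npnt, 0.031 for Thsd7a and 0.0066 for Pla2r1. The mean of a gene's probes gave 0.028 for Thsd7a. Npnt was 0.10 with the core covariate and 0.03 without ob/ob replicate 2. Nes was -0.019 with quantile normalization, -0.020 with normexp, -0.051 with the array median, -0.11 with the slide block and without enarodustat replicate 3, -0.06 without ob/ob replicate 1 and -0.18 with the slide row. When 1 array was left out, Npnt ranged down to -0.23 and Nes up to 0.087 here, and Pla2r1 up to 0.17 in enarodustat against wild type. Pla2r1 was 0.00062 with quantile normalization, 0.026 with the slide block and without enarodustat replicate 3, 0.18 with the tubule covariate and 0.02 without ob/ob replicate 2. Over all settings and results, 498 values kept direction and side of the threshold, 45 lost and 9 gained the call, and 48 changed sign.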
